A study of Mus musculus with 81 samples.

Results

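The naive mice of the rechallenge experiment met EG7.OVA for the first time, and their blood T-cell repertoire was sequenced on both sides of that challenge. They were 5 age-matched Pep Boy mice, B6 animals that carry the CD45.1 allele, and had received neither a tumor nor mRBC, the mouse red blood cells used as treatment, before. On day 65 they received 5e5 naive OT-1 cells, T cells whose transgenic TCR recognizes an OVA peptide, and minutes later they were bled. EG7.OVA, a line of the T-cell lymphoma EL4 that makes OVA, was injected on day 66, and blood was drawn again on day 73, 7 days after challenge. This gave 10 of the 81 libraries of the series, 5 from each day, with the 2 libraries of a mouse joined through its number in the labels. Of each library the in-frame rearrangements with a CDR3 other than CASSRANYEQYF, the CDR3 of OT-1, were described, 38100 distinct nucleotide rearrangements over the 5 mice of 353691 in the series. The host's own T cells are meant here by endogenous. Comparison groups were the 7 cured mice, Pep Boy mice that had cleared EG7.OVA after mRBC-OVA-4-1BBL-IL-12 (2.5e8 per dose) and OT-1 cells (1e6), and that were challenged again on day 66 with blood on days 65 and 73, and the mRBC-CTRL mice, which carried established EG7.OVA tumors, received 1e6 OT-1 cells and 1e9 mRBC-CTRL, and were bled on day 0, after the OT-1 transfer, and on day 7. Of the latter, the 4 mice with both libraries were used. The cured mice had received their OT-1 cells with the earlier treatment, not minutes before the day 65 bleed. The mRBC-CTRL mice carry another code in their labels than the naive and cured mice, and the time between their bleeds differed as well. The groups thus differ in several of tumor, treatment, OT-1 dose and timing, label code and bleeding days together, so these cannot be told apart.

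A T cell builds its TCRβ chain by joining a V, a D and a J segment, and the enzyme TdT adds untemplated N bases at the joints. The CDR3 spans these joints and contacts the peptide, and its sequence marks the descendants of one T cell. Most naive T cells belong to very small clones, so a small blood sample rarely catches the same clone again, whereas a clone that has divided after meeting antigen can be sampled repeatedly. A rearrangement with no N base can arise in many animals independently, because it needs only the segments that all animals of the strain carry. Out-of-frame joints are carried silently beside the working chain and are not seen by antigen.

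The rearrangements on which the description of single clones turned are shown first, each as the 87-base read 5′ to 3′ with the CDR3 bases in capitals. The read stops before the last codon of the CDR3. The first line is the transferred OT-1 rearrangement (TCRBV12-01 with TCRBJ02-07), which was removed from everything that follows.
OT-1 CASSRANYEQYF: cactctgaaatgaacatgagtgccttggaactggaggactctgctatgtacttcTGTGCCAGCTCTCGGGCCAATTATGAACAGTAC
In naive mouse 2 the largest endogenous clones seen on day 73 only were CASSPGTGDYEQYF (TCRBV19-01 with TCRBJ02-07, 0 templates on day 65 and 13 on day 73) and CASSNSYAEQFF (TCRBV12-01 with TCRBJ02-01, 0 and 11).
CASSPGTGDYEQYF: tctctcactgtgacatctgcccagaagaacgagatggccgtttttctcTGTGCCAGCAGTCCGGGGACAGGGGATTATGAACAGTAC
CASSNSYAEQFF: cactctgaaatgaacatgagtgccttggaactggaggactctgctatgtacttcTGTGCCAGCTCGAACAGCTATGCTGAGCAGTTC
The largest seen on day 65 only were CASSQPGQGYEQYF of mouse 1 (TCRBV02-01 with TCRBJ02-07, 10 templates and 0) and a TCRBV05-01 clone of mouse 2 (with TCRBJ02-01, 9 and 0).
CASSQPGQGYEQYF: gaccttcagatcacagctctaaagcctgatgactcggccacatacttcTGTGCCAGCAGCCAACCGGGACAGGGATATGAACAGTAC
TCRBV05-01 clone of mouse 2: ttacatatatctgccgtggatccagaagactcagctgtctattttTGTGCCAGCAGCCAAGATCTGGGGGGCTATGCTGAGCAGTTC
The last pair shows a TCRBV13-02 clone of mouse 5 found on both days (with TCRBJ02-07, 2 and 9 templates, 8 N bases), and a rearrangement without N bases that several mice had made, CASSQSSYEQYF (TCRBV05-01 with TCRBJ02-07).
TCRBV13-02 clone of mouse 5: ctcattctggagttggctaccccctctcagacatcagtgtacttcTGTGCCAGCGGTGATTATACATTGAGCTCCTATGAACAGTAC
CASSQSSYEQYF: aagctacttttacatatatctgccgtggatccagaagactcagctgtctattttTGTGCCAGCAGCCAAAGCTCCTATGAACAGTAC

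The depth and make-up of the 10 libraries were as follows. The libraries of mice 1 to 5 held 8805, 6917, 5132, 7232 and 9981 templates on day 65, and 7762, 9027, 6180, 8018 and 11058 on day 73. A template is one rearranged DNA molecule as estimated by the assay. OT-1 took 374 to 825 templates per library on day 65 and 31 to 133 on day 73. After its removal the in-frame templates were 3184 to 6192 on day 65 and 4195 to 7371 on day 73, and the day 73 library was the larger in 4 of 5 mice. Rearrangements with the OT-1 segments within 2 mismatches of OT-1 came to 1 template in mouse 1 and 2 in mouse 2 on day 65 and to 0 elsewhere. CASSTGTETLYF, the CDR3 of the lymphoma line itself, was found as 1 template in mouse 5 on day 73 and in none of the other 9 libraries, where 3 templates, the smallest number taken as detectable, would be 0.0484% to 0.0942% of the in-frame templates on day 65 and 0.0502% to 0.0715% on day 73. Between 70.9% and 73.6% of endogenous in-frame rearrangements were represented by a single template in these 10 libraries, and the mean was 1.31 to 1.36 templates per rearrangement whatever the library total. In bulk DNA a smaller share of a clone and a larger share of all others cannot be told apart.

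Few endogenous rearrangements were caught in the same naive mouse on both days, although more than in different mice. At full depth 20, 19, 12, 16 and 20 rearrangements were shared between the days in mice 1 to 5, which is 0.432% to 0.596% of the day 65 rearrangements and 0.365% to 0.537% of those of day 73. At an equal depth of 2621 templates per library, the expected number shared was 6.92, 8.11, 8.09, 7.61 and 5.96 in mice 1 to 5, a mean of 7.34 ± 0.908 (SD, n = 5). Over the 20 pairs of a day 65 library with the day 73 library of another naive mouse, the mean was 3.33, with a lowest of 1.40 and a highest of 4.92. Every mouse shared more with its own other library than with any library of the other day from another naive mouse. The same-mouse mean was 2.20 times the mean of different mice (exact permutation test over all pairings of the libraries, one-sided, p = 0.00833, the smallest this design allows), which also checks the pairing of the labels.

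The overlap was larger when a clone was defined by its CDR3 amino acids with V and J gene, 15.9 ± 1.95 (SD, n = 5) in the same mouse, but different mice then shared 12.5 (exact permutation test, one-sided, p = 0.0167). The Morisita-Horn index, which weights shared clones by size and runs from 0 to 1, was 0.00713 ± 0.00208 (SD, n = 5) in the same naive mouse and 0.00259 between naive mice (exact permutation test, one-sided, p = 0.00833). Non-productive rearrangements, which antigen does not act on directly, were also shared more in the same mouse at an equal depth of their own, 2.31 ± 1.56 (SD, n = 5) against 0.614 (exact permutation test, one-sided, p = 0.00833).

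**Figure D1:**
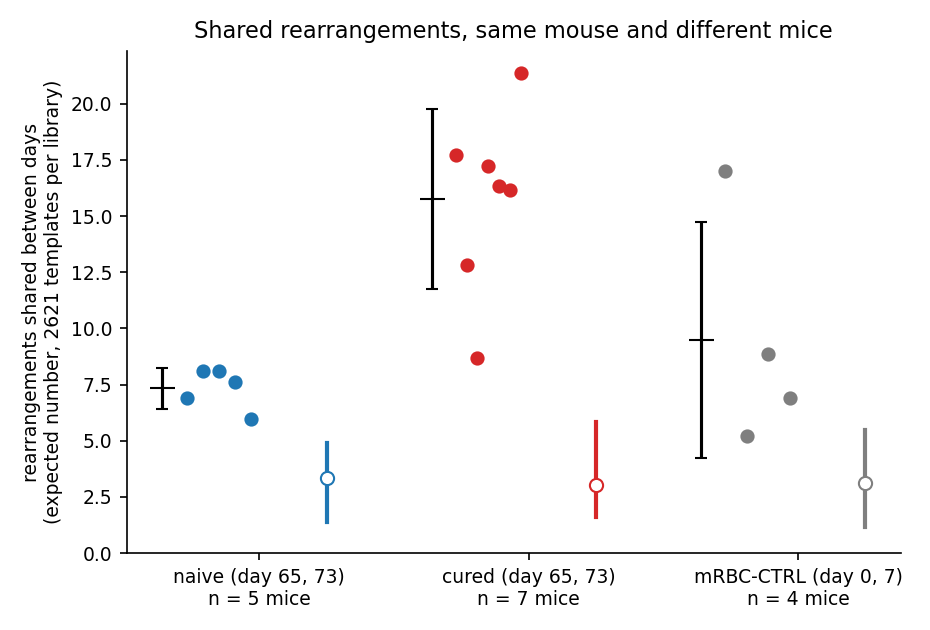
Expected number of endogenous in-frame rearrangements shared between the first and second day at 2621 templates per library (vertical axis), for naive, cured and mRBC-CTRL mice. Filled points are mice with their own other library, the black bar and whiskers their mean and SD, the open point and line the mean and the lowest to highest value of pairs of different mice. The 5 naive mice lie between 5.96 and 8.11, above the highest different-mouse value of 4.92.

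The sharing between days was lower in naive than in cured mice over the same days. Cured mice shared 15.8 ± 4.01 (SD, n = 7) rearrangements at equal depth, and naive minus cured mice gave -8.43 (exact permutation test, 2-sided, p = 0.00253), and all 7 lay above the naive maximum. On the Morisita-Horn index the difference was -0.195 and did not pass (exact permutation test, 2-sided, p = 0.0821), and the cured mice ranged from 0.0239 to 0.657. In mRBC-CTRL mice 9.49 ± 5.24 (SD, n = 4) were shared, and the difference from naive mice of -2.16 did not pass the test (exact permutation test, 2-sided, p = 0.516).

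Most clones of naive mice were small, whether found again or not, and among day 65 clones the percent found again was highest at 5 to 9 templates. Of the 12896 clones with a single template on day 65, 53 were found on day 73, or 0.411% (95% Wilson interval 0.314% to 0.537%). Of 4970 clones with 2 to 4 templates, 32 were found again (0.644%, interval 0.456% to 0.908%), and of 14 with 5 to 9 templates 2 were (14.3%, interval 4.01% to 39.9%). The only clone with at least 10 templates on day 65, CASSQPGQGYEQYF of mouse 1, was not among the 5008 in-frame templates of day 73. In cured mice 28 of 29 clones with at least 10 templates on day 65 were found again. The intervals cover counting error only, and clones of one mouse share its library.

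Rearrangements without N bases made up a larger part of the shared clones than of the rest. Summed over the naive mice, 87 rearrangements were found in both libraries of a mouse, 76 of them in no other naive mouse and 11 also in another. Of the 76, 19.7% had no N base, against 8.65% of the 38311 found on one day only, although their mean number of N bases, 3.46, was close to the 3.42 of the latter. The share without N bases was higher the greater the number of naive mice that held a rearrangement. It was 8.26% among the 37814 rearrangements of a single mouse, 34.3% among the 274 found in 2 mice and 58.3% among the 12 found in 3. No rearrangement was found in 4 or 5 naive mice. These shares are given without a test, as rearrangements of a mouse are not replicates.

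No change in the diversity of the endogenous repertoire was detectable over the first challenge. Richness, the expected number of distinct rearrangements among 2621 templates, was 2317, 2190, 2066, 2197 and 2316 in mice 1 to 5 on day 65 and 2237, 2289, 2164, 2236 and 2345 on day 73. It was higher on day 73 in 4 of 5 mice, by 37.3 ± 73.2 (SD, n = 5; exact sign-flip test, p = 0.3125, adjusted p = 0.7 over 7 measures). Clonality, which is 0 when all clones are equally large and approaches 1 when a single clone dominates, was 0.00713 ± 0.00181 on day 65 and 0.00664 ± 0.00106 on day 73 (SD, n = 5; exact sign-flip test, p = 0.375). The 10 largest clones, taken without thinning, held 1.01% ± 0.214 and 0.977% ± 0.175 of the templates (SD, n = 5; exact sign-flip test, p = 0.4375). With 5 pairs this test cannot go below 0.0625, so none of these tests could pass 0.05. At full depth clonality was instead higher on day 73 by 0.000747 (exact sign-flip test, p = 0.125), and without single-template rearrangements by 0.00135 (exact sign-flip test, p = 0.0625).

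Richness and clonality still followed the size of the naive library after thinning to equal depth. Over the 10 libraries, which come from 5 mice, r with the in-frame template total was 0.958 for richness and -0.943 for clonality, and rho was 0.952 and -0.976. These are descriptions without a test. Mouse 1, the only naive mouse with fewer in-frame templates on day 73 (5712 and 5008), was also the only one whose richness was lower and whose clonality was higher on that day.

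**Figure D2:**
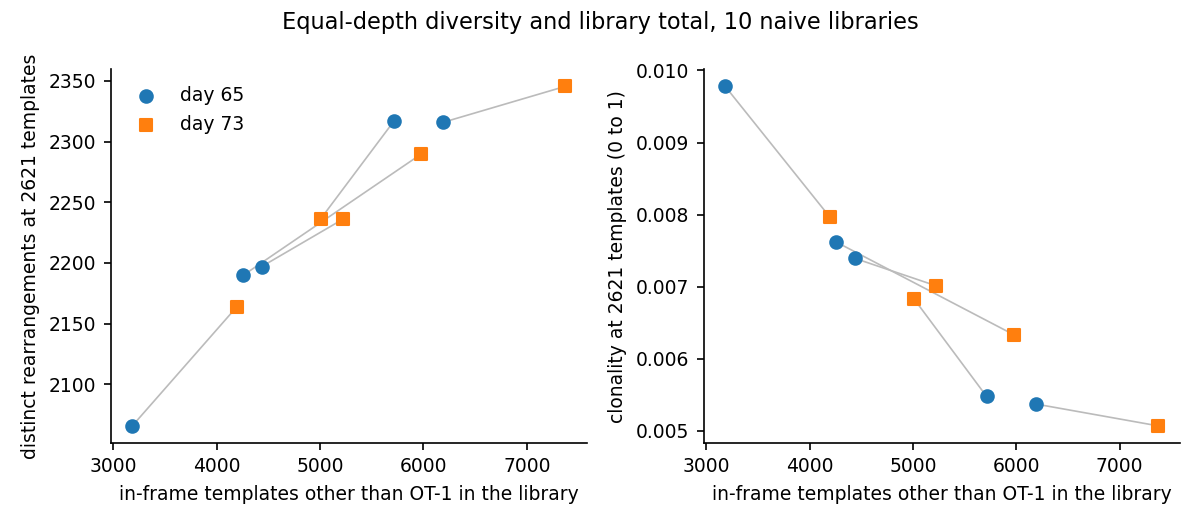
Richness (left) and clonality (right) at 2621 templates against the in-frame template total of the library, for 10 naive libraries. Circles are day 65, squares day 73, and grey lines join the libraries of a mouse. Both days lie on a common trend with the library total (r = 0.958 and -0.943).

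The largest clones gained less of the repertoire in naive mice than in either group with a tumor history. From the first to the second day the share of the 10 largest clones was higher by 2.83 percentage points in cured mice, in 7 of 7, and by 2.55 points in mRBC-CTRL mice, in 4 of 4, while it changed by -0.0347 ± 0.0757 points (SD, n = 5) in naive mice. The difference of the changes was -2.87 points from cured (exact permutation test, 2-sided, p = 0.0126, adjusted p = 0.0383 over 7 measures) and -2.58 points from mRBC-CTRL (p = 0.00794, the smallest the exact permutation test allows, adjusted p = 0.0278). Clonality changed by 0.0115 ± 0.0105 (SD, n = 7) in cured mice, and the difference of -0.0120 passed (exact permutation test, 2-sided, adjusted p = 0.0383). It changed by 0.00586 ± 0.00452 (SD, n = 4) in mRBC-CTRL mice, and the difference of -0.00635 passed as well (exact permutation test, 2-sided, adjusted p = 0.0278). Richness changed by -154 ± 129 (SD, n = 7) in cured mice, 191 below the naive change (exact permutation test, 2-sided, adjusted p = 0.0383), and by 32.5 ± 181 (SD, n = 4) in mRBC-CTRL mice (exact permutation test, 2-sided, adjusted p = 0.968).

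Library size moved with these comparisons. The in-frame template total fell between the days in 7 of 7 cured mice, to 0.391 to 0.813 of the first day, and its part in the cured differences was not tested. It rose in 4 of 5 naive and in 4 of 4 mRBC-CTRL mice, to 0.877 to 1.40 and 1.00 to 2.38 of the first day. Its part in the mRBC-CTRL differences was not tested either. The call on clonality against cured mice was lost at full depth (difference -0.00936, exact permutation test, 2-sided, p = 0.0530) and without naive mouse 2 (p = 0.0515 before adjustment) or mouse 3 (p = 0.0545).

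**Figure D3:**
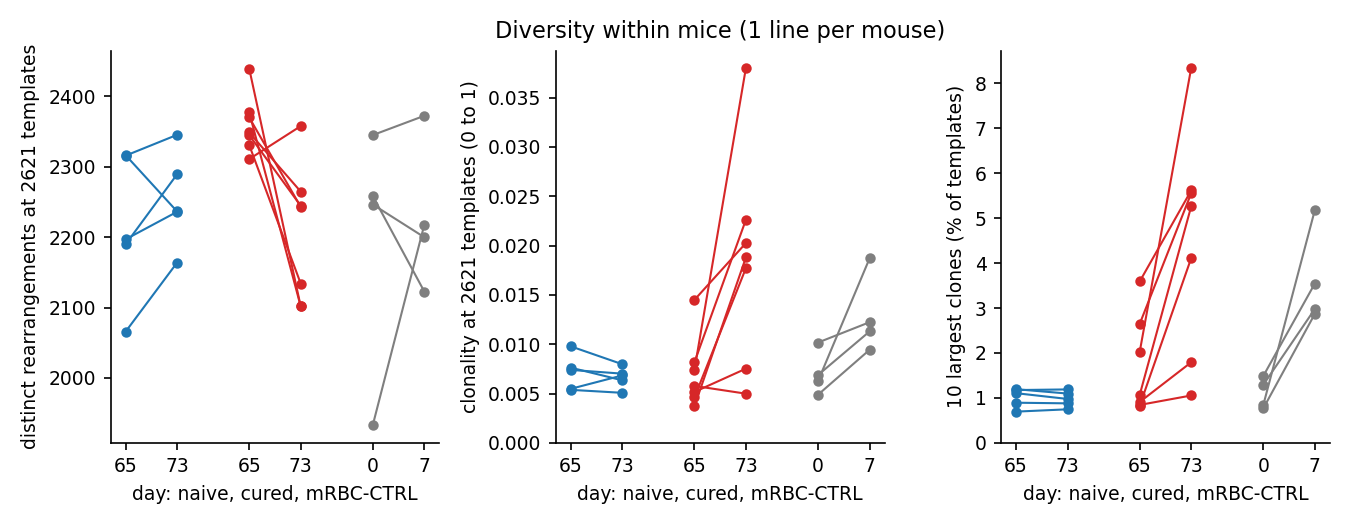
Richness, clonality and the share of the 10 largest clones on the first and second day (horizontal axis) for naive mice in blue, cured mice in red and mRBC-CTRL mice in grey, 1 line per mouse. The naive lines of the right panel stay between 0.694% and 1.19%, while the lines of all 7 cured and all 4 mRBC-CTRL mice rise.

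Single clones were called in both directions in naive mice, each of them seen on 1 day only. Of 51 rearrangements with at least 5 templates over both days of a mouse, 8 (15.7%) were higher and 11 (21.6%) lower on day 73 (Fisher's exact test, adjusted p under 0.05 within the mouse). In mice 1 to 5 the calls were 2, 2, 2, 2 and 0 higher and 2, 4, 1, 4 and 0 lower. All 19 called clones had 0 templates on the other day and 5 to 13 on the day they were seen, and no clone was called in more than 1 naive mouse. Each thus met the minimum of 5 templates only through the day on which it was seen, and no clone was called with no minimum. The calls do not by themselves show a change in a clone. These tests treat templates as independent molecules and compare 2 libraries of a mouse, not replicates. The near constant templates per rearrangement at every library total, and the equal-depth values that still followed the total, leave that assumption in doubt, so the Fisher p-values may be too small.

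The clones with the smallest adjusted p in each mouse were of this kind. In mouse 2 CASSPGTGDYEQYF had 0 templates on day 65 and 13 on day 73 (Fisher's exact test, adjusted p = 0.00675), and the TCRBV05-01 clone printed above had 9 and 0 (Fisher's exact test, adjusted p = 0.00447). In mouse 1 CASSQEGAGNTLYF (TCRBV02-01 with TCRBJ01-03) had 0 and 7 (Fisher's exact test, adjusted p = 0.0194), and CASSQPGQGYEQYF had 10 and 0 (adjusted p = 0.0186). In mouse 3 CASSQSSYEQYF had 0 and 7 (Fisher's exact test, adjusted p = 0.0439), and a clone of TCRBV02-01 with TCRBJ02-07 had 7 and 0 (adjusted p = 0.0166). In mouse 4 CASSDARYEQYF (TCRBV13-03 with TCRBJ02-07) had 0 and 8, and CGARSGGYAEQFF (TCRBV20-01 with TCRBJ02-01) had 7 and 0 (Fisher's exact test, adjusted p = 0.0406 for both). In mouse 5 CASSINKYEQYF (TCRBV19-01 with TCRBJ02-07) had 0 and 7 and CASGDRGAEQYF (TCRBV13-02 with TCRBJ02-07) had 6 and 0, and neither passed (Fisher's exact test, adjusted p = 0.104 for both). The TCRBV13-02 clone of mouse 5 printed above, its largest on day 73, did not pass either (Fisher's exact test, adjusted p = 0.1145).

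The rearrangements printed above differed in how widely they were held. The rearrangements of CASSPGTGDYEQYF, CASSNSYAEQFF and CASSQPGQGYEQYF were each found in 1 of the 81 libraries. The CDR3 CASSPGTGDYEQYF was present in 13 of the 27 mice of the series over all nucleotide sequences that encode it, naive mouse 2 included. The rearrangement of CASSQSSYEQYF, which has no N base, was found in 7 mice, among them naive mouse 5 with 3 templates on day 65, and its CDR3 in 17 mice. The CDR3 of the TCRBV02-01 clone seen in mouse 3 on day 65 only was found in 18 mice.

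**Figure D4:**
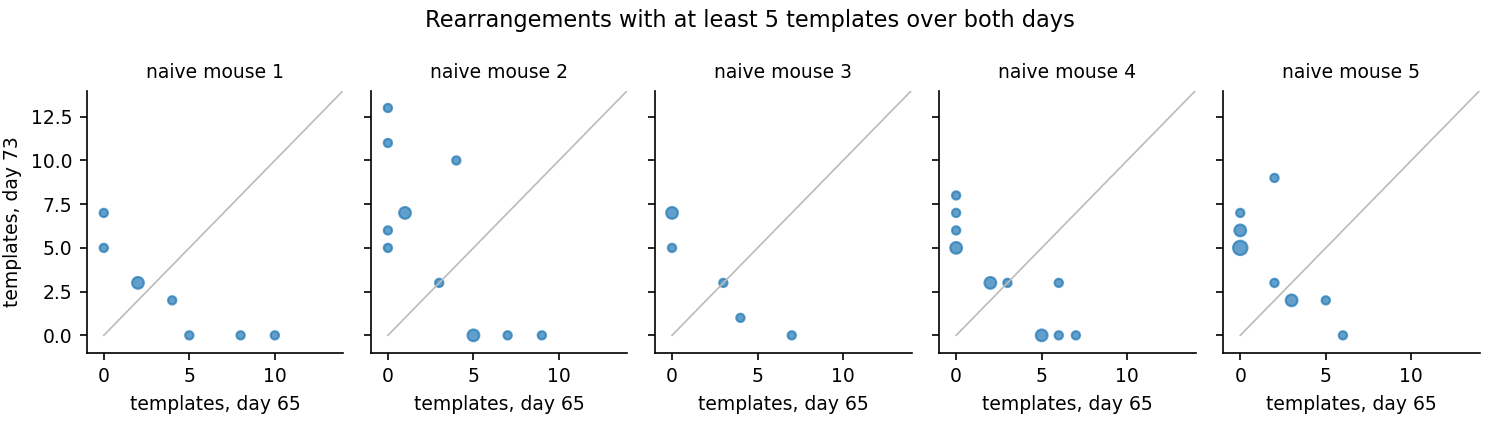
Templates on day 65 (horizontal) and day 73 (vertical) of the 51 endogenous rearrangements with at least 5 templates over both days, 1 panel per naive mouse. Point area grows with the number of rearrangements at a position and the grey line marks equal counts. Most points lie on an axis, with 0 templates on the other day, and the highest count is 13.

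Naive mice had fewer clones called higher than mRBC-CTRL mice. The number called higher was 1.6 ± 0.894 (SD, n = 5) per naive mouse and 8.5 ± 2.08 (SD, n = 4) per mRBC-CTRL mouse, with no overlap (exact permutation test, 2-sided, p = 0.00794, adjusted p = 0.0404 over 8 comparisons). Over the 4 mRBC-CTRL mice 34 of 106 clones were called higher (32.1%) and 7 lower (6.60%), and over the 7 cured mice 51 of 193 (26.4%) and 2 (1.04%). More clones could thus be tested than the 51 of naive mice, and as a percent of the clones tested the difference did not pass (18.1% and 35.6%, exact permutation test, 2-sided, adjusted p = 0.180). Against cured mice, with 7.29 ± 4.50 (SD, n = 7) higher per mouse, it did not pass after adjustment (exact permutation test, 2-sided, adjusted p = 0.0556). Of the clones tested, 21.2% ± 13.4 (SD, n = 5) were lower on day 73 in a naive mouse and 0.966% ± 1.83 (SD, n = 7) in a cured mouse (exact permutation test, 2-sided, adjusted p = 0.0404). In number, 2.2 against 0.286 per mouse, this did not pass (adjusted p = 0.0556 by the same exact permutation test), nor did the percent lower against mRBC-CTRL mice (7.09%, adjusted p = 0.165). All 7 cured mice had fewer in-frame templates on day 73, at 0.391 to 0.813 of day 65. In a smaller second library a clone that falls to 0 is harder to call lower. In cured mice 47 clones of at least 5 templates fell to 0, while 2 were called lower. The Fisher p-values were adjusted within each mouse, over 6 to 13 clones in naive mice and 16 to 50 in cured mice. Before adjustment, 12 of 51 clones were lower at p under 0.05 in naive mice and 12 of 193 in cured mice (Fisher's exact test). The parts of library size and of the number of clones tested in this difference were not tested.

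Clones appeared and disappeared in every naive mouse, and the difference in number did not pass the test. A clone with at least 5 templates on day 73 and 0 on day 65 occurred 20 times, with 2, 4, 3, 5 and 6 in mice 1 to 5, and the opposite 13 times, with 3, 4, 1, 4 and 1. The difference per mouse was 1.4 ± 2.30 (SD, n = 5; exact sign-flip test, p = 0.375), and 0.5 without mouse 5. It depended on the minimum, with 94.8 more clones appearing per mouse at a minimum of 3 templates (exact sign-flip test, p = 0.0625, the smallest 5 pairs give) and 3.6 for clones by CDR3, V and J (exact sign-flip test, p = 0.1875). The day 73 library was the larger in 4 of 5 mice, and its part in these differences was not tested. They held 0.467% ± 0.143 of the templates of day 73 and 0.370% ± 0.211 of those of day 65 (SD, n = 5). In mRBC-CTRL mice 68 clones appeared and 8 disappeared. Naive minus mRBC-CTRL mice gave -13.6 for appeared minus disappeared clones per mouse (exact permutation test, 2-sided, p = 0.0159). The in-frame template total of mRBC-CTRL mice on day 7 was 1.00 to 2.38 of day 0, and its part in this difference was not tested. In cured mice 35 appeared and 47 disappeared, and the difference from naive mice did not pass (exact permutation test, 2-sided, p = 0.165). By share of templates the cured mice went the other way, with 0.859% appearing and 0.380% disappearing. The appearing share was the larger in 7 of 7 (exact sign-flip test, p = 0.0156). By number, 3 cured mice had more clones appearing and 3 more disappearing. All 7 cured mice had fewer in-frame templates on day 73, where 5 templates are a larger percent than on day 65. The part of library size in these shares was not tested. Their difference from naive mice did not pass either (exact permutation test, 2-sided, p = 0.340).

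The features of the clones that appeared and disappeared in naive mice are given side by side, without a test. Of the 20 that appeared, 13 rearrangements were found in no other mouse of the series, 12 used TCRBJ02-07, 3 had no N base, and the CDR3 of 4 was present in at least 1 of the 15 tumor libraries, which come from other mice. Of the 13 that disappeared these numbers were 9, 8, 2 and 4. Over all endogenous in-frame templates of naive mice, TCRBJ02-07 held 27.5% on day 65 and 29.3% on day 73. Templates without N bases held 8.65% and 8.60%. For the other features no share over all rearrangements was computed, so those counts cannot be read as particular to these clones.

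Among V segments TCRBV29-01 was called higher on day 73, and it was higher in all 5 naive mice. It held 3.41%, 2.51%, 3.27%, 3.11% and 2.86% of endogenous in-frame templates in mice 1 to 5 on day 65 and 4.29%, 3.60%, 3.72%, 4.48% and 3.70% on day 73, so that every value of day 73 lay above every value of day 65. In templates this was 104 to 195 on day 65 and 156 to 273 on day 73. The change was 0.926 ± 0.337 percentage points (SD, n = 5), or 0.39 on the log2 scale (edgeR quasi-likelihood test with the mouse as a block, adjusted p = 0.00134). Of 25 V segments tested this was the only one called, so 4.00% were called higher and 0 lower, while 5 had an unadjusted p under 0.05. A change in the same direction in all 5 mice was not particular to it. TCRBV13-02 and TCRBV14-01 were also higher in 5 of 5 mice, and TCRBV01-01, TCRBV10-01 and TCRBV24-01 lower in 5 of 5, without a call. DESeq2 called none (adjusted p = 0.367 for TCRBV29-01), and without mouse 2 the edgeR quasi-likelihood test gave TCRBV29-01 an adjusted p of 0.0571.

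The rise of TCRBV29-01 was also called when clone size was left out. With each rearrangement counted once, its log2 change was 0.37 (edgeR quasi-likelihood test, adjusted p = 0.00878). Among non-productive rearrangements TCRBV29-01 held 2.98% on day 65 and 3.08% on day 73 (edgeR quasi-likelihood test, adjusted p = 0.969). Over the same days TCRBV29-01 changed by 0.0531 ± 0.917 points (SD, n = 7) in cured mice, and by 0.163 ± 0.340 points (SD, n = 4) in mRBC-CTRL mice from day 0 to day 7. The difference of the changes did not pass against cured (edgeR quasi-likelihood test of the interaction, log2 0.41, adjusted p = 0.0539) or mRBC-CTRL mice (log2 0.33, adjusted p = 0.393).

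TCRBV12-01, the segment of OT-1, and TCRBV01-01 came next in the V test and were named after their values were seen. TCRBV12-01 among endogenous templates was 4.31% ± 1.22 on day 65 and 5.06% ± 0.675 on day 73 (SD, n = 5), higher in 4 of 5 mice and not called (edgeR quasi-likelihood test, adjusted p = 0.0532). Its call changed with the handling of OT-1-like sequences, since without the 3 templates close to OT-1 its adjusted p was 0.0471. OT-1 itself had fewer templates on day 73 in all 5 mice. TCRBV01-01 was 5.89% ± 0.563 and 5.13% ± 0.510 (SD, n = 5), lower in 5 of 5 mice (edgeR quasi-likelihood test, adjusted p = 0.0532).

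The most used V segments kept their places. TCRBV13-02 held 10.3% ± 0.605 on day 65 and 11.0% ± 0.558 on day 73 (SD, n = 5; edgeR quasi-likelihood test, adjusted p = 0.256). TCRBV03-01 held 7.95% ± 0.329 and 7.84% ± 0.612, and TCRBV19-01 held 7.44% ± 0.792 and 7.24% ± 0.377 (SD, n = 5; edgeR quasi-likelihood test, adjusted p = 0.824 for both). By family, none of the 3 TCRBV13 members tested, the 2 TCRBV12 members or the 5 segments TCRBV01 to TCRBV05 was called, and their median log2 changes were -0.03, 0.16 and -0.07 beside -0.02 over all 25 V segments. TCRBV31-01, which lies behind the J segments in the opposite orientation and joins by inversion, had 5.93% ± 0.237 and 5.29% ± 0.403 (SD, n = 5; edgeR quasi-likelihood test, adjusted p = 0.163).

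**Figure D5:**
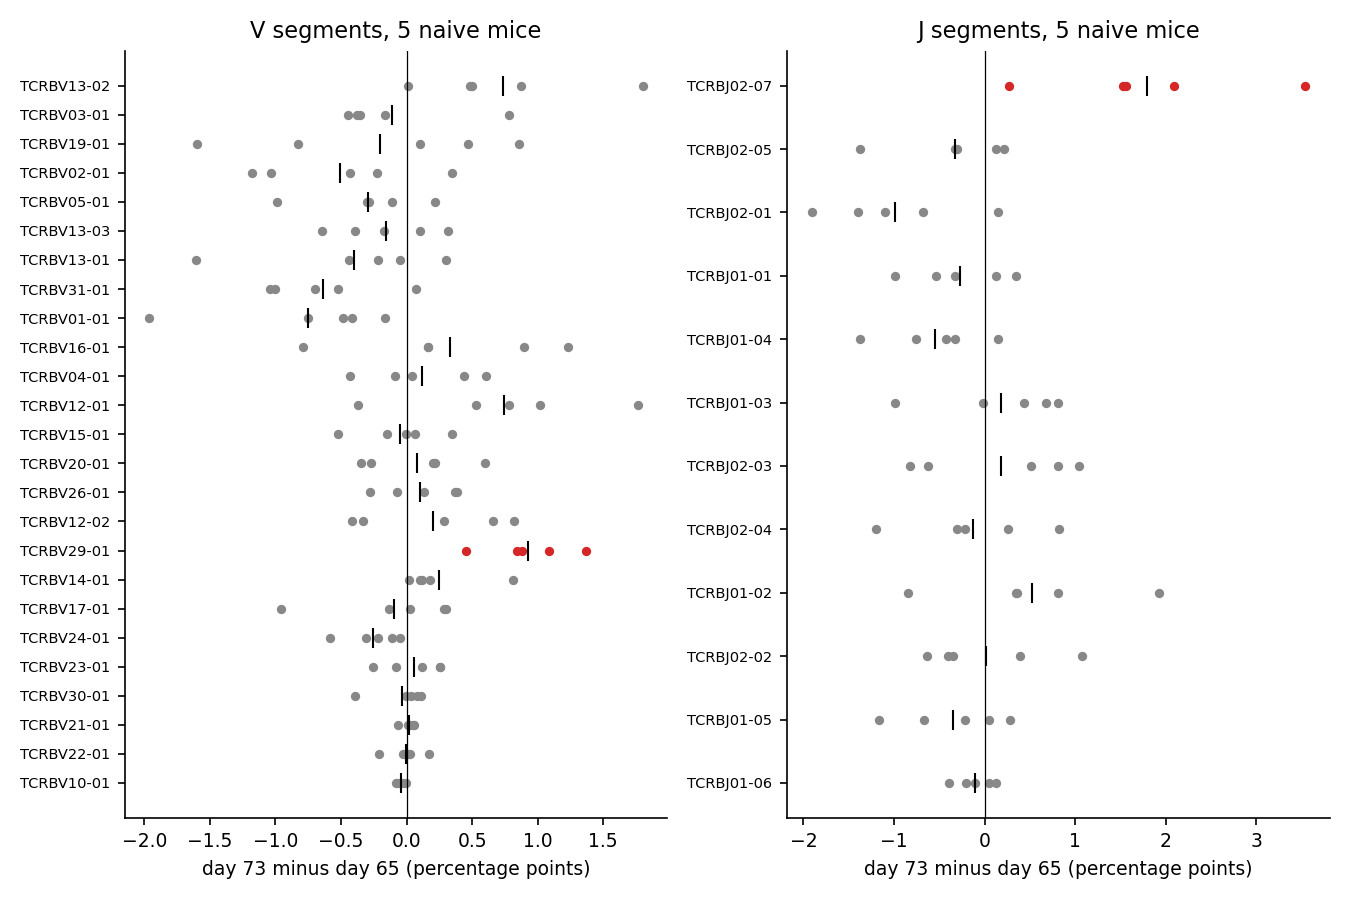
Change in the share of endogenous in-frame templates from day 65 to day 73, in percentage points (horizontal), for each of the 25 V and 12 J segments tested, ordered by use on day 65 with the most used at the top. Points are the 5 naive mice, the short black line their mean, and red marks the called segments TCRBV29-01 and TCRBJ02-07, for both of which all 5 mice lie above 0.

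Among J segments TCRBJ02-07, the most used and the J segment of OT-1, was called higher. It held 26.8%, 28.1%, 27.4%, 26.2% and 28.9% in mice 1 to 5 on day 65 and 28.9%, 29.6%, 28.9%, 29.7% and 29.1% on day 73. Each mouse was higher on day 73, and the highest value of day 65 (28.86%, mouse 5) lay just below the lowest of day 73 (28.89%, mouse 1). The change was 1.80 ± 1.18 percentage points (SD, n = 5), or 0.09 on the log2 scale (edgeR quasi-likelihood test, adjusted p = 0.0277). It was the only one of 12 J segments called, 8.33% higher and 0 lower. The call was lost with TMM, DESeq2, limma, no filter on low counts, each rearrangement counted once, and without mouse 1, 2, 3 or 4 (adjusted p from 0.115 to 0.876). The non-productive share of TCRBJ02-07 moved by a like amount, 1.93 ± 2.10 points (SD, n = 5; edgeR quasi-likelihood test, adjusted p = 0.564).

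TCRBJ02-07 was also the only segment whose change differed between naive and cured mice. In cured mice it changed by -0.504 ± 0.858 points (SD, n = 7) and the difference was 0.12 on the log2 scale (edgeR quasi-likelihood test of the interaction, adjusted p = 0.00634), which was not called by DESeq2, by limma or with each rearrangement counted once. Cured mice started higher, at 29.8% ± 0.974 (SD, n = 7) on day 65 against 27.5% ± 1.05 (SD, n = 5) in naive mice, and both groups had 29.3% on day 73. Against mRBC-CTRL mice neither a V nor a J segment was called, with 3 V and 0 J segments at an unadjusted p under 0.05 and 0 called by DESeq2. TCRBJ02-05 held 9.58% ± 0.622 and 9.25% ± 0.183, and TCRBJ02-01 held 9.49% ± 0.792 and 8.50% ± 0.297 in naive mice (SD, n = 5; edgeR quasi-likelihood test, adjusted p = 0.798 and 0.177). The whole TCRBJ02 cluster was 64.4% ± 0.875 and 64.9% ± 1.13 (SD, n = 5; exact sign-flip test, p = 0.625).

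No change in the structure of the CDR3 or in the non-productive share of naive mice passed its test, and none could. With 5 pairs the sign-flip test does not go below 0.0625, so it cannot decide whether these measures changed. Out-of-frame and stop-codon rearrangements made up 31.3%, 32.3%, 33.1%, 33.9% and 32.4% of the endogenous templates in naive mice 1 to 5 on day 65 and 35.2%, 32.8%, 31.7%, 34.5% and 33.0% on day 73. The change was 0.864 ± 1.90 percentage points (SD, n = 5; exact sign-flip test, p = 0.5), with 4 of 5 mice higher, and 0.107 points without mouse 1 or 1.42 without mouse 3. Mouse 1 moved most, and its 95% Wilson intervals, 30.3% to 32.3% and 34.2% to 36.3%, did not overlap. The mean CDR3 length was 41.5 ± 0.111 and 41.4 ± 0.0677 bases (SD, n = 5; exact sign-flip test, p = 0.25). Without single-template rearrangements it was shorter on day 73 in all 5 mice, by a change of -0.315 bases (exact sign-flip test, p = 0.0625). Templates without N bases made up 8.65% ± 0.464 and 8.60% ± 0.448 (SD, n = 5; exact sign-flip test, p = 1). For these measures and the TCRBJ02 cluster, the naive change differed from the cured change by 0.569 points, -0.0335 bases, 0.749 points and 1.51 points, and none passed (exact permutation test, 2-sided, adjusted p from 0.155 to 0.593).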

How the data were processed

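Per the labels and methods, genomic DNA of mouse blood was amplified and sequenced with the immunoSEQ assay for TCRβ, and the authors deposited for each 87-base rearrangement a template count, which is not normalized, and the fraction of all templates in the library. In all naive, cured and mRBC-CTRL blood libraries used here that fraction equalled the count divided by its sum. The segment reference and build are not given in the sources used here. The mouse number in the labels names the same animal on both days and served as the pair. The day 73 library of cured mouse 2 carries another mouse number in its label wording and was paired by its animal code. Each naive mouse's 2 libraries shared more rearrangements with each other than with those of other naive mice.

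From the counts, in-frame rearrangements other than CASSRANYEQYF were thinned to 2621 templates by exact formulas for richness, clonality and overlap. This was the smallest total among the libraries compared. The share of the 10 largest clones was taken at the full depth of each library. Changes were tested by exact sign-flip and exact permutation tests, clones by Fisher's exact test with at least 5 templates, and segment counts with at least 10 templates by edgeR 4.0.16 (quasi-likelihood, the mouse as a block, library size as the total, adjusted p under 0.05). DESeq2 1.42.0 and limma 3.58.1 (log2 of percent plus 0.1) were alternatives, besides other clone definitions and leaving out each mouse. Procedures were tested on simulated data. Named were the called segments, the 3 most used V and J segments, and in each mouse the clones with the smallest adjusted p, of at least 10 templates on a single day, or largest on a day. Libraries held 5132 to 11058 templates. The mice, measures and lists were chosen with earlier results of these data known. Computations used R 4.3.3, numpy 2.4.6 and scipy 1.17.1 under python 3.11.15, with pandas 2.3.3 for tables and matplotlib 3.10.9 for plots.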

Additional observations from a re-analysis of the deposited data

Results flagged for a closer look

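Differences between the naive mice and another group that passed their own test were the following. Against cured mice, the change of richness differed by 191 rearrangements, of clonality by -0.0120, and of the share of the 10 largest clones by -2.87 percentage points. Against mRBC-CTRL mice, the change of clonality differed by -0.00635 and that of the 10 largest clones by -2.58 points. The rearrangements shared between days at equal depth differed by -8.43 from cured mice. Appeared minus disappeared clones differed from mRBC-CTRL mice by -13.6 per mouse in number and by -3.35 points in share of templates (exact permutation test, 2-sided, p = 0.0159 and 0.00794). The clones called higher differed from mRBC-CTRL mice by -6.9 per mouse, and the percent of tested clones called lower differed from cured mice by 20.2 points. The day 73 libraries of the cured mice were all smaller than those of day 65. In 4 of 4 mRBC-CTRL mice the in-frame template total was larger on day 7 than on day 0. Fewer clones were tested per naive mouse than per cured mouse. The parts of library size and of the number of clones tested were not tested. The log2 change of TCRBJ02-07 differed from cured mice by 0.12.

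No naive mouse stood far apart from the other 4 of its group in any of 43 sets of 5 values examined, where chance alone gives about 1 in 20.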

How the results depend on the processing

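The sign-flip test of the changes in naive mice does not go below 0.0625, so it passed under no alternative. It reached 0.0625 for clonality and, with -0.315 bases, for mean CDR3 length, both without single-template rearrangements. The signs of several such changes turned: clonality in naive mice at full depth (0.000747) and without single-template rearrangements (0.00135), the non-productive share without single-template rearrangements (-0.0890, and -1.46 against cured mice), and, with each rearrangement counted once, the mean CDR3 length (0.0563, and 0.0806 against cured mice) and the share without N bases (0.0184). Richness against mRBC-CTRL mice was -708 at full depth, -24.9 without single-template rearrangements and -7.58 for clones by CDR3, V and J. Clonality against cured mice was -0.00936 at full depth and overlap against cured mice -0.195 on the Morisita-Horn index, both no longer past the test.

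Each naive, cured and mRBC-CTRL mouse was left out in turn, the latter 2 groups as a choice made after seeing the data. Against mRBC-CTRL mice, richness then ranged from -51.3 to 88.9, the non-productive share from -0.416 to 0.899, CDR3 length from -0.0618 to 0.0818, the share without N bases from -0.302 to 1.07, the TCRBJ02 share from -0.776 to 0.338 and overlap from -3.59 to 0.351. Against cured mice, clonality ranged from -0.0140 to -0.00882, the non-productive share from -0.188 to 1.13, the share without N bases from 0.566 to 0.990 (past 0.05 before adjustment without naive mouse 2) and the TCRBJ02 share from 0.943 to 2.06 (past 0.05 before adjustment without naive mouse 5). In naive mice alone, richness ranged from 21.7 to 66.6, clonality from -0.000944 to -0.000153, the non-productive share from 0.107 to 1.42 and appeared minus disappeared clones from 0.5 to 2, while the share without N bases ranged from -0.230 to 0.194 and the TCRBJ02 share from -0.0227 to 1.09. Among the differences recomputed without a cured or mRBC-CTRL mouse, none that passed 0.05 before adjustment rose above it. Adjusted p was not recomputed, so whether calls made after adjustment would hold was not tested. The segment tests were repeated only without a naive mouse, not without a cured or mRBC-CTRL mouse.

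Called clones, 8 higher and 11 lower, became 2 and 1 with at least 10 templates, 0 and 0 with no minimum, 1 and 2 at an adjusted p under 0.01, and 7 lower with all in-frame templates as the denominator. Leaving out a mouse gave 6 to 8 higher and 7 to 11 lower, the lowest without mouse 2 or mouse 4. V segments called in naive mice were 1 in the fit with the mouse as a block and 1 in the fit without the replicate block, 0 by DESeq2, 2 without rearrangements near OT-1, 0 for non-productive rearrangements, and 0 to 2 on leaving out a mouse (0 without mouse 2, 2 without mouse 4, where TCRBV12-01 joined). J segments were 1 with and 1 without the replicate block, 0 with TMM, DESeq2, no filter, each rearrangement counted once, limma or non-productive rearrangements, and 0 to 1 on leaving out a mouse. Against cured mice, V segments were 2 with each rearrangement counted once, 2 without clones above 1%, 1 for non-productive rearrangements and 0 to 1 on leaving out a mouse, while J segments were 0 by DESeq2, limma, each rearrangement counted once and non-productive rearrangements. The log2 change of TCRBV03-01 turned to 0.0188 with TMM and 0.0763 for non-productive rearrangements, and that of TCRBV19-01 to 0.00920 with TMM and, on leaving out a mouse, ranged from -0.0775 to 0.0408 (without mouse 2). The non-productive settings were chosen after seeing the data. The cause of these shifts was not tested.

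The 3184 to 7371 in-frame templates of a naive library limit which clones are seen on both days.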
